A study of Secale cereale x Triticum turgidum subsp. durum with 39 samples.

Results

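The step from the uninucleate microspore (UNM) to bicellular pollen (BCP) was followed in whole anthers of triticale, the cereal hybrid of wheat and rye, on 6 of the 39 arrays of the study. The arrays were chosen by their sample titles, 3 for anthers at UNM and 3 for anthers at BCP. Each array carried RNA of untreated plants of x Triticosecale Wittmack cv. Alta raised in a growth chamber, hybridised to the Affymetrix Wheat Genome Array. The labels call the 3 arrays of a group biological replicates and do not say how many plants each one pooled. Ovaries and stigmas sampled at the same stages, anthers at the tetrad (TET) and tricellular pollen (TCP) stages, and mature pollen grains (MPG) served for comparison, each as a group of 3 from the same cultivar. RNA at UNM and BCP was extracted and labelled with the same kits in all 3 organs, so this step crosses no change of kit. TET samples had kits of their own, and TCP and MPG samples shared another set. A level at UNM or BCP set beside one at TET, TCP or MPG therefore crosses a change of kit, and stage and kit cannot be told apart there.

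At this step the microspore divides unequally into a large vegetative cell, which will form the pollen tube, and a small generative cell, which will give the sperm cells. The tapetum, the innermost layer of the anther wall, feeds the microspores and supplies material for the pollen wall, and it breaks down as pollen matures. In cereals the vegetative cell fills with starch and builds a store of transcripts that is carried into the dry grain. An anther holds wall, tapetum and pollen together, so in these bulk samples fewer cells of a type and less RNA per cell cannot be told apart.

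A probe set is a group of short probes made for a transcript, or, where its name ends in _a_at, _s_at or _x_at, with probes that related transcripts can share, and its level is given as a log2 signal. A mean of at least 8 is called bright here and a mean under 6 dim, and folds that start or end at a dim mean describe the signal, since background light makes up much of it there. Over all probe sets, Pearson's r between anther arrays ran from 0.9855 to 0.9924 within a stage and from 0.9219 to 0.9541 across the step. BCP replicate 3 was the farthest from UNM and BCP replicate 2 the nearest. Hybridisation controls, which are added to every sample before hybridisation, averaged 11.04 at UNM and 10.50 at BCP. Poly-A controls averaged 6.03 and 6.81. Both kinds moved the same way in the other organs. Ovaries had hybridisation controls at 10.68 then 10.34 and poly-A controls at 5.16 then 6.99, and stigmas had 10.63 then 10.14 and 5.45 then 6.89. The part of these shifts in the results was not tested beyond the scaling given below.

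From UNM to BCP, 2458 of 61179 probe sets were called higher (4.02%) and 2606 were called lower (4.26%). A probe set was called at an adjusted p under 0.05 in limma with a log2 difference of at least 1. The median rise was 1.48 on the log2 scale, a 2.79-fold difference, and 242 probe sets rose by at least 4. The median fall was -1.54, a 2.91-fold difference, and 123 probe sets fell by at least 4. The 3 BCP arrays lay above all 3 UNM arrays for 2412 of the probe sets called higher, and below them for 2541 of those called lower. Over all probe sets, called or not, 16.8% were separated upward in this way and 18.4% downward. None of the 64 probe sets for foreign reporter genes was called.

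The balance of rises and falls depended on the scaling of the arrays. When every array was scaled to the same hybridisation controls, the median difference over all probe sets moved from -0.02 to 0.52, and 6632 probe sets were called higher and 1295 lower. All 2458 probe sets called higher remained so under that scaling. It moved the differences upward, so it could hardly end a rise, and their survival is no test of the rises. Of the 2606 probe sets called lower, 1295 remained so.

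**Figure D1:**
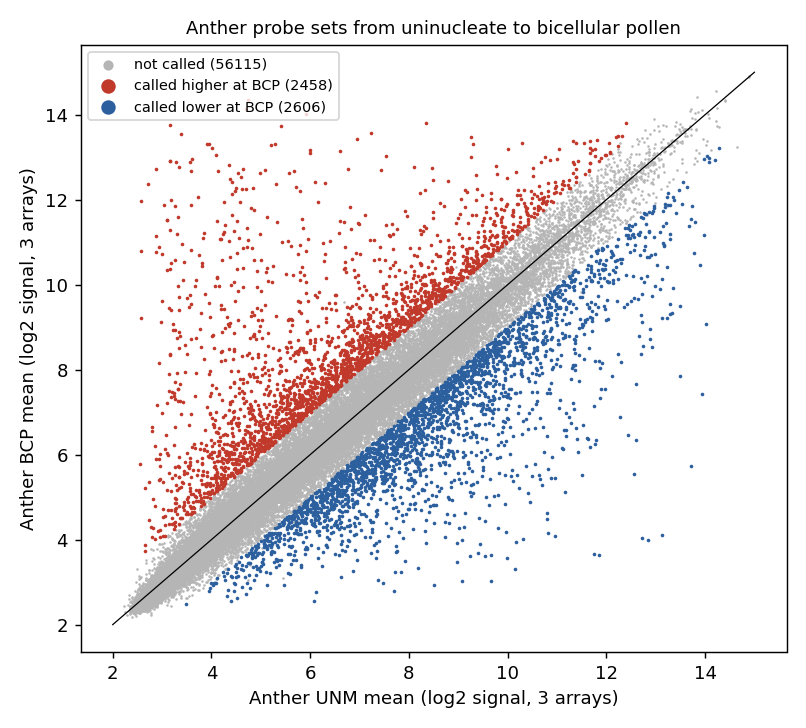
Mean log2 signal of each probe set in anthers at UNM (x axis) and BCP (y axis), 3 arrays each, with the 2458 probe sets called higher in red, the 2606 called lower in blue and the rest in grey. The diagonal marks equal means, and the largest rises run from the bottom left corner of dim signals up to the brightest signals on the array.

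The largest change was a rise from background to the top of the signal range. The probe set Ta.12754.1.S1_x_at, which has no gene name in the annotation used, read 3.07, 3.09 and 3.29 on the UNM arrays and 13.77, 13.37 and 14.13 on the BCP arrays. The log2 difference was 10.60 (SE 0.20, adjusted p = 1.4e-29 in limma). It stayed at 13.95 ± 0.06 (SD, n = 3) in TCP anthers and 13.88 ± 0.09 (SD, n = 3) in mature pollen, while ovaries and stigmas read no more than 3.60 and 3.54 in the mean at UNM and BCP. A companion, Ta.12754.1.S1_s_at, carries the same sequence cluster number in its name and so is not independent of it. The companion rose by 10.16 (SE 0.24).

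The 2 steepest falls were of transcripts that were high at UNM alone among the anther stages. Ta.25909.1.A1_at read 13.34, 12.99 and 13.08 at UNM and 3.92, 4.51 and 3.86 at BCP, a log2 difference of -9.04 (SE 0.26, adjusted p = 1.1e-24 in limma). At TET its mean had been 4.74 ± 0.56 (SD, n = 3). Ta.16014.1.S1_at followed the same course with more spread, at 11.00, 13.48 and 14.03 at UNM and 4.11, 4.00 and 3.85 at BCP. Its log2 difference was -8.85 (SE 0.41, adjusted p = 1.2e-18 in limma), from a TET mean of 4.19. Both were dim in ovaries and stigmas at every stage.

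Among the 2458 risers, 1149 were dim at UNM and 286 at BCP. A group of 274 went all the way from dim at UNM to bright at BCP. Of these, 245 (89.4%) were dim in ovaries and in stigmas at both UNM and BCP, and 255 were dim in anthers at TET. Over all probe sets, 65.7% to 66.2% were dim in each of these ovary and stigma groups taken singly, and 67.1% in TET anthers. The share of all probe sets dim in every one of these groups was not counted. Among the 2606 fallers, 174 went from bright at UNM to dim at BCP, and 54 of them (31%) met the same test of being dim in ovaries and stigmas. In ovaries at BCP, 73 of the 174 were bright, where 16.6% of all probe sets were. The 274 were chosen as dim in UNM anthers and the 174 as bright there, so the 89.4% and 31% start from unlike levels.

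Most of the dim-to-bright group was also bright in mature pollen, across a change of kit from BCP. In mature pollen 174 of the 274 were bright, 51 lay between 6 and 8 and 49 were dim. In TCP anthers 188 were bright. Over all probe sets, 9.38% were bright in mature pollen and 13% in TCP anthers. Of the probe sets bright at BCP and not called at the step, 36.3% were bright in mature pollen and 61.9% in TCP anthers. The group had a median of 4.62 at UNM, 9.83 at BCP, 10.82 in TCP anthers and 10.26 in mature pollen. Bright in both TCP anthers and mature pollen were 168 (61.3%), and dim in both were 30 (10.9%). A further 12 were bright in TCP anthers and dim in mature pollen. The shares of all probe sets with these joint levels were not counted.

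Of the 30 that were dim again in TCP anthers and mature pollen, the 2 with the largest rise, chosen after their values were seen, were Ta.22365.2.S1_a_at and TaAffx.87282.1.S1_at. Ta.22365.2.S1_a_at read 3.41, 3.72 and 2.91 at UNM, 12.87, 12.46 and 12.9998 at BCP, 6.48, 5.88 and 5.58 at TCP, and 5.63, 4.97 and 5.24 in mature pollen. The BCP arrays stood above all other anther and pollen arrays by more than 5 log2 units. TaAffx.87282.1.S1_at behaved alike, with means of 2.87 at UNM, 11.16 at BCP, 4.53 at TCP and 4.79 in mature pollen. The rises were 9.43 (SE 0.19, adjusted p = 7.4e-29 in limma) and 8.28 (SE 0.15, adjusted p = 1.4e-29 in limma).

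Ta.4272.1.S1_at, also chosen after its values were seen, was present in TCP anthers and not in the grain. It read 3.17, 3.18 and 3.16 at UNM and 12.65, 12.73 and 13.36 at BCP, a rise of 9.75 (SE 0.55, adjusted p = 2.8e-16 in limma). At TCP the replicates spread over 11.74, 10.56 and 6.69, and mature pollen read 3.53, 3.55 and 2.80.

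The bright-to-dim group had mixed levels at TET, which lies across a change of kit from UNM. There 67 of the 174 (38.5%) were bright, 48 lay between 6 and 8, and 59 (33.9%) were dim. Over all probe sets, 15.4% were bright and 67.1% dim in TET anthers. Of the probe sets bright at UNM and not called at the step, 81.1% were bright and 2.86% dim. The median went from 7.01 at TET to 8.90 at UNM and 5.34 at BCP, then 4.72 in TCP anthers and 4.99 in mature pollen. By the same measure 9 of the 67 that were bright at TET (13.4%) were dim in the female organs, against 35 of the 59 that were dim at TET (59.3%). Over all probe sets, 65.7% to 66.2% were dim in each of these organ groups taken singly. The split was made on the level in TET anthers, and the part of general signal level in it was not tested. Of the 67, the 2 sequence clusters with the largest falls, chosen after their values were seen, were Ta.1345.1.S1_x_at and Ta.7479.2.S1_x_at. Ta.1345.1.S1_x_at read 11.07, 11.42 and 11.31 at TET, 10.77, 10.86 and 11.28 at UNM and 4.40, 3.97 and 3.91 at BCP. Ovaries kept it at 12.44 and 12.41 in the mean at UNM and BCP. Its fall of -6.88 in anthers (SE 0.25) differed from the ovary change by -6.84 (adjusted p = 4.6e-17 in limma). Ta.7479.2.S1_x_at fell by -6.66 (SE 0.27), from a UNM mean of 10.83, and stood at 8.48 in ovaries at BCP.

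**Figure D2:**
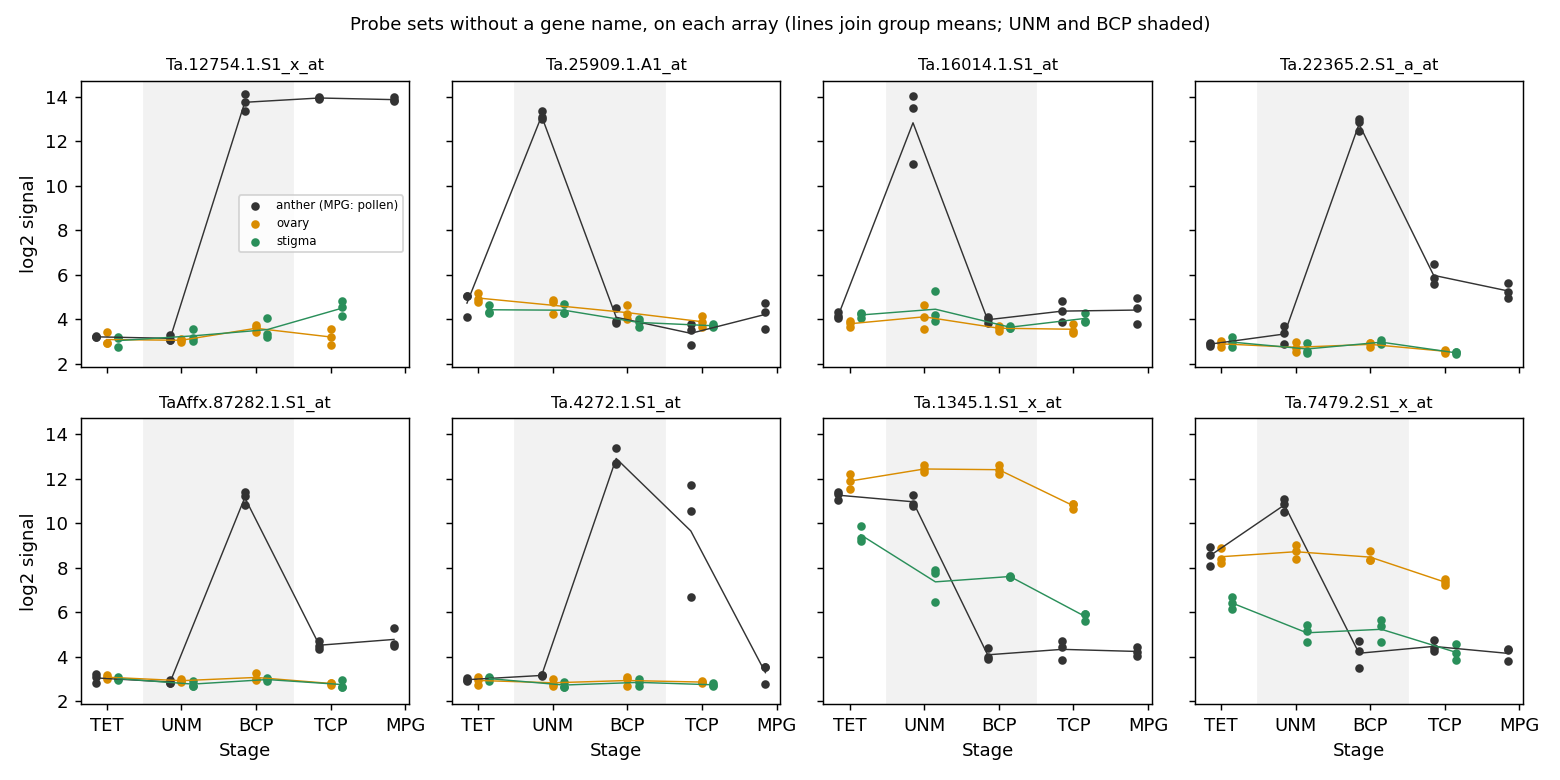
Log2 signal on each array (points) and group means (lines) of 8 probe sets without a gene name, in anthers from TET to TCP with mature pollen at MPG (black), ovaries (orange) and stigmas (green). Ta.12754 stays high in pollen, Ta.25909 and Ta.16014 are high in anthers at UNM alone, Ta.22365 and TaAffx.87282 at BCP alone, Ta.4272 drops before the mature grain, and Ta.1345 and Ta.7479 leave anthers while ovaries keep them.

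The place of all 2458 risers in mature pollen was read from arrays outside the contrast that chose them, although all 39 arrays shared the estimate of spread behind the calls. In mature pollen 878 (35.7%) were bright and 931 (37.9%) dim, against 9.38% and 68.2% of all probe sets. The 3 pollen arrays gave risers a median of 6.81, 6.84 and 6.78. Against the organs that shared kits with mature pollen, 850 of the 2458 risers (34.6%) were called higher in mature pollen than in both TCP ovaries and TCP stigmas, where 14.9% of all probe sets were. As a second background, 7798 probe sets were bright at BCP and not called at the step, and 506 of them (6.49%) were higher in mature pollen than in both organs. By level, 36.3% of this uncalled set were bright in mature pollen and 26.6% dim, so risers were not more often bright there than this set. Of the risers themselves, 56.3% were bright at BCP. Lower in mature pollen than in both organs were 408 risers (16.6%), near the 17.4% of all probe sets and under the 61.2% of the uncalled bright set. These shares moved with scaling, under which the risers were called anew. On the hybridisation controls 13.4% of the 6632 probe sets then called higher at the step were higher in mature pollen than in both organs, against 3.08% of all probe sets and 2.72% of the uncalled bright set. On the brighter 50% of probe sets, with 2462 called higher at the step, the shares were 41.7%, 32.4% and 9.17%.

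Between mature pollen and TCP anthers, which also shared kits, 678 risers (27.6%) were lower in the grain and 172 (7%) higher. Over all probe sets 11.7% were lower and 3.98% higher, and in the uncalled bright set 45.2% were lower and 3.49% higher.

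The 2606 fallers were read back at TET in the same way. In TET anthers 962 (36.9%) were bright and 802 (30.8%) dim, against 15.4% and 67.1% of all probe sets. Their median in anthers was 7.20 at TET, 8.39 at UNM and 6.44 at BCP, and it lay at 5.40 in TCP anthers and 5.16 in mature pollen. Within the TET kits, 563 fallers (21.6%) were called higher in anthers than in both ovaries and stigmas, where 3.63% of all probe sets were. Of 7880 probe sets bright at UNM and not called at the step, 9.91% were. By level, 81.1% of this uncalled set were bright in TET anthers and 2.86% dim, so fallers were less often bright there than this set. Of the fallers themselves, 57.5% were bright at UNM. In the other direction 227 fallers (8.71%) were lower in TET anthers than in both female organs, against 2.67% of all probe sets and 3.96% of the uncalled bright set. In mature pollen 1146 fallers (44%) were lower than in both TCP organs, against 17.4% of all probe sets and 62.2% of the set that was bright at UNM and not called.

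**Figure D3:**
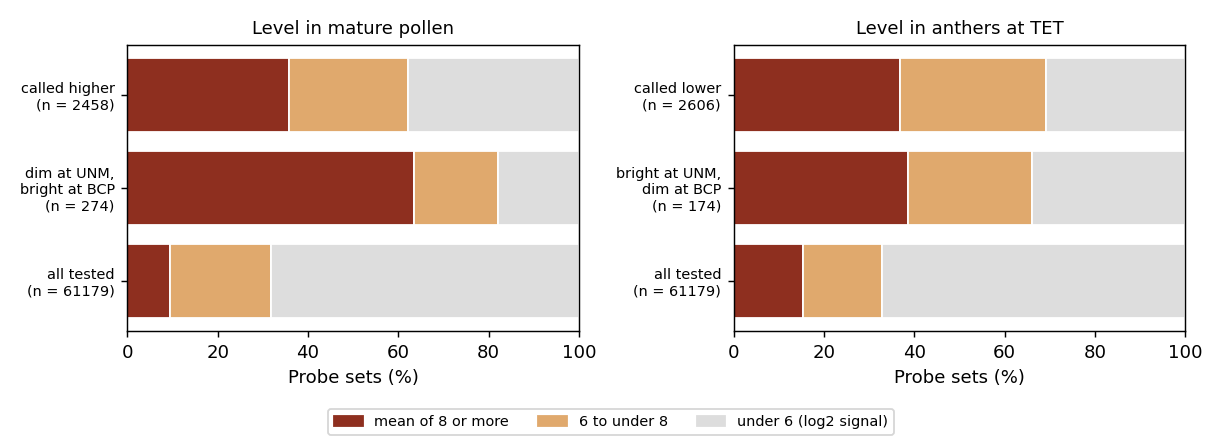
Share of probe sets (x axis, percent) with a mean log2 signal of 8 or more, of 6 to under 8, and under 6, in mature pollen for those called higher at BCP (left) and in TET anthers for those called lower (right), beside all probe sets tested. Bright in mature pollen were 35.7% of the risers, 63.5% of the 274 that went from dim to bright, and 9.38% of all. Of the probe sets bright at BCP and not called, which are not drawn, 36.3% were bright in mature pollen.

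Ovaries and stigmas of the same stages, prepared with the same kits, share no array with the anther step. Of the 2458 risers, 56 (2.28%) were called higher in ovaries over the same interval, where 0.834% of all probe sets were, and 144 (5.86%) in stigmas, where 1.89% of all were. In stigmas 145 risers (5.9%) were called lower, where 1.72% of all probe sets were. The median change of risers was 0.05 in ovaries and 0.02 in stigmas. Of the 2606 fallers, 77 (2.95%) fell in ovaries too, where 0.569% of all probe sets did, and 188 (7.21%) fell in stigmas. Called higher were 156 fallers (5.99%) in ovaries and 178 (6.83%) in stigmas.

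The difference between organs was tested directly as the anther change minus the change in the other organ. Against ovaries 2742 probe sets had a higher change in anthers (4.48%) and 3068 a lower one (5.01%). Against stigmas the numbers were 3163 (5.17%) and 3498 (5.72%). Beyond both organs at once the anther change was higher for 1938 probe sets (3.17%) and lower for 2207 (3.61%). These tests use the same anther arrays as the step itself.

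**Figure D4:**
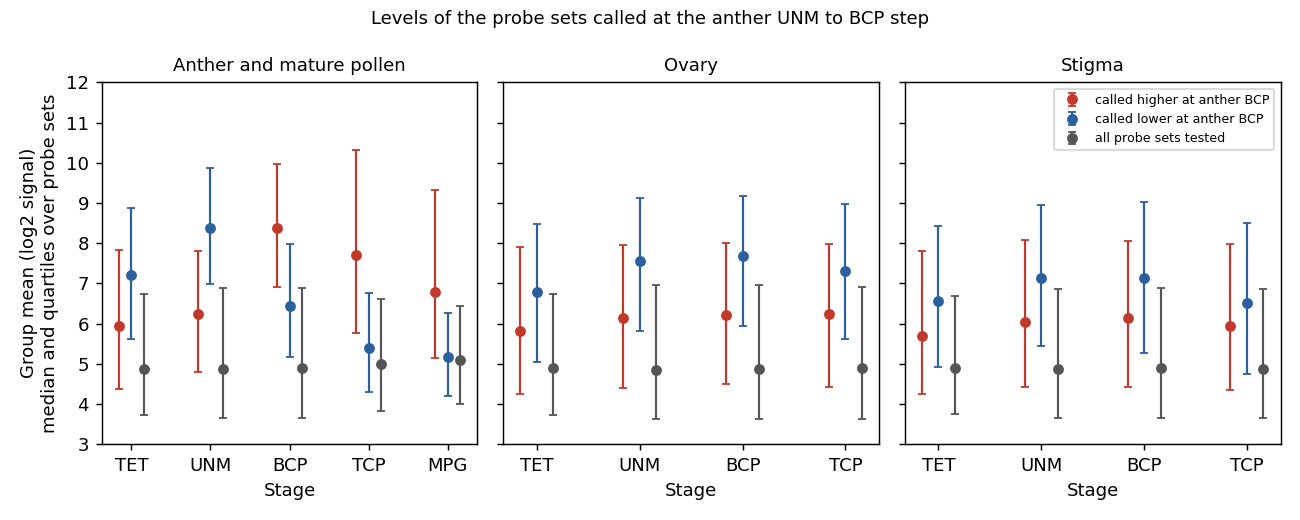
Median and quartiles over probe sets of the group mean log2 signal (y axis) at each stage (x axis), for the 2458 called higher (red) and the 2606 called lower (blue) at anther BCP and for all 61179 (grey), in anthers with mature pollen, ovaries and stigmas. In ovaries the medians of risers are 6.15 at UNM and 6.22 at BCP, and those of fallers 7.55 and 7.67.

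Few of these probe sets could be given a gene name. The annotation paired 13 gene symbols with 19 probe sets and 758 bare locus numbers with 1254 more. By the brightest probe set of each, 67 of the 758 loci rose and 62 fell, where 4.02% of all probe sets rose and 4.26% fell. The comparison is uneven, because loci were read at their brightest probe set and all probe sets include the dim ones. These loci are left unnamed because no description came with them. The array's wheat control probe sets, which are not among the 61179, added 8 names, so 21 genes could be described. Of these 2 rose, 6 fell and 13 did not pass, where 8.29% of all probe sets were called either way in the fit with the controls added. The median change of the 21 was -0.06, beside -0.02 over all probe sets. Of the markers listed for tapetum, pollen, green anther wall and ovary, petC of the wall alone had a probe set under its name, so the labelled tissue was not checked against the others here.

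Actin, the subunit of the actin filaments inside cells, rose. The probe set for the 3' end of the control transcript read 4.67, 4.59 and 4.76 at UNM and 12.54, 11.95 and 13.08 at BCP, a difference of 7.85 (SE 0.18). The middle (M) probe set, the brightest over all arrays, read 5.89, 5.91 and 6.06 at UNM and 9.45, 8.86 and 10.37 at BCP, a difference of 3.61 (SE 0.19). The 5' probe set read 6.02, 5.70 and 5.85 at UNM and 6.82, 6.59 and 8.04 at BCP, a difference of 1.29 (SE 0.19). The size of the rise thus differed between the segments read. In ovaries at UNM, BCP and TCP, the 5' probe set of the Sucsyn control read 3.85, 3.98 and 8.03 in the mean. Its 3' probe set read 12.55, 12.48 and 12.62 there. The 5' probe set of the Ubiquitin control was bright, at 13.29, 12.73 and 13.72. The part of weak 5' signal at UNM and BCP in the actin differences was not tested. All 3 segments were highest on BCP replicate 3 and lowest on BCP replicate 2. In TCP anthers the 3', M and 5' probe sets had means of 13.96, 13.98 and 13.55, and in mature pollen of 14.07, 13.61 and 13.17, all near the top of the signal range. The M probe set's anther change exceeded that of ovaries by 3.74 (adjusted p = 3.6e-13 in limma) and that of stigmas by 3.42 (adjusted p = 3.2e-12 in limma).

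TUBA, an alpha-tubulin of the microtubules, had no call. It read 12.97, 12.92 and 12.74 at UNM and 12.67, 13.08 and 12.69 at BCP, so the groups overlapped, and it stood at 11.86 in mature pollen. The cytoskeleton list thus had 1 of its 2 members higher, where 4.02% of all probe sets were.

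Sugar and carbon genes were lower or not called. Sucsyn, sucrose synthase, which cleaves imported sucrose for starch and wall synthesis, read 11.58, 12.48 and 13.002 at UNM and 9.90, 10.32 and 9.53 at BCP at its 3' probe set. The groups did not overlap, and the difference was -2.44 (SE 0.22, adjusted p = 8.3e-11 in limma). In TET anthers Sucsyn stood at 9.05, with a difference of -3.22 from TET ovaries. In mature pollen it stood at 6.43, against 12.62 in TCP ovaries. Its M probe set fell by -1.69 and its 5' probe set was dim at both stages. The anther change differed from that of ovaries by -2.37 (adjusted p = 5e-07 in limma) and from that of stigmas by -2.93 (adjusted p = 5.5e-09 in limma).

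G-6-PDH, glucose-6-phosphate dehydrogenase, opens the pentose phosphate pathway and supplies reducing power. Its 3' probe set read 9.57, 9.69 and 10.14 at UNM and 8.01, 8.23 and 7.44 at BCP, a difference of -1.91 (SE 0.21, adjusted p = 7.3e-09 in limma). In TET anthers it stood at 10.41, where ovaries read 7.55 and stigmas 7.82, and it ended at 5.12 in mature pollen. The M probe set fell by -1.29, and the 5' probe set, dim at both stages, differed by -0.43 and was not called.

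FBP, fructose bisphosphatase, which makes hexose phosphate on the way to sucrose or starch, went opposite ways in the organs. It read 9.80, 10.02 and 9.99 in anthers at UNM and 8.99, 9.10 and 8.18 at BCP, a fall of -1.18 (SE 0.20, adjusted p = 2.5e-05 in limma). In ovaries it rose by 1.37 and in stigmas by 1.30. The difference of the changes was -2.55 against ovaries (adjusted p = 2.3e-08 in limma) and -2.49 against stigmas (adjusted p = 3e-08 in limma). The anther call ended without BCP replicate 3 (-0.89) and with scaling on the hybridisation controls (-0.64). The additional FBP probe set was dim in anthers and ovaries at both stages.

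The other members of the glycolysis and pentose phosphate list did not pass, which left 2 of its 5 genes lower, where 4.26% of all probe sets were. GAPN, the non-phosphorylating glyceraldehyde-3-phosphate dehydrogenase, read 9.72, 9.80 and 9.64 at UNM and 9.92, 9.03 and 8.41 at BCP, with overlapping groups. Without BCP replicate 1 its difference went from -0.60 to -1.01 and passed. The gapdh control had a difference of 0.41 between dim means of 5.24 and 5.64, and PFK, phosphofructokinase, was dim at both stages.

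petC, the Rieske protein of the chloroplast cytochrome complex and a marker of green tissue, fell in anthers. It read 12.52, 12.75 and 12.69 at UNM and 11.57, 11.20 and 10.73 at BCP, a difference of -1.49 (SE 0.21, adjusted p = 9.9e-07 in limma), which became -0.94 and was no longer called with scaling on the hybridisation controls. Over the same interval the ovary means were 9.87 and 10.79 and the stigma means 8.05 and 9.03. These differences of 0.91 (adjusted p = 0.0076 in limma) and 0.98 (adjusted p = 0.0013 in limma) were under the size needed for a call. The anther change differed from both, by -2.40 (adjusted p = 1.6e-07 in limma) and -2.46 (adjusted p = 7.3e-08 in limma). At TET petC had been at 9.98 in anthers, and in mature pollen it was at 6.18. The additional petC probe set was dim throughout.

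XTH, a xyloglucan endotransglucosylase/hydrolase that loosens or rejoins cell wall xyloglucan, read 6.98, 6.95 and 6.59 at UNM and 5.99, 5.37 and 5.59 at BCP. That fall of -1.19 (SE 0.21, adjusted p = 3.1e-05 in limma) set anthers apart from stigmas, where XTH rose by 1.63 over the same stages. The difference of the changes was -2.82 (adjusted p = 3.2e-09 in limma). Against ovaries the difference was -1.02 (adjusted p = 0.013 in limma), and that call ended with scaling on the hybridisation controls (-0.82) and without any of 4 single anther arrays, the smallest value being -0.88 without BCP replicate 2. The anther fall itself ended with that scaling too (-0.65).

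CYP86-TA, which bears the name of the cytochrome P450 enzymes that hydroxylate fatty acids for cutin and related polymers, fell at 1 of its probe sets. The 3' probe set read 9.41, 9.39 and 9.28 at UNM and 6.87, 7.48 and 4.89 at BCP, and BCP replicate 3 stood well under the other two. The difference was -2.94 (SE 0.32, adjusted p = 5.5e-09 in limma), and -2.18 without that array. Ovaries moved by -0.17 and stigmas by 0.06, and the anther change differed from them by -2.77 (adjusted p = 2.1e-05 in limma) and -3.01 (adjusted p = 4.5e-06 in limma). The M and 5' probe sets did not share the fall, with differences of -0.04 and 0.21.

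**Figure D5:**
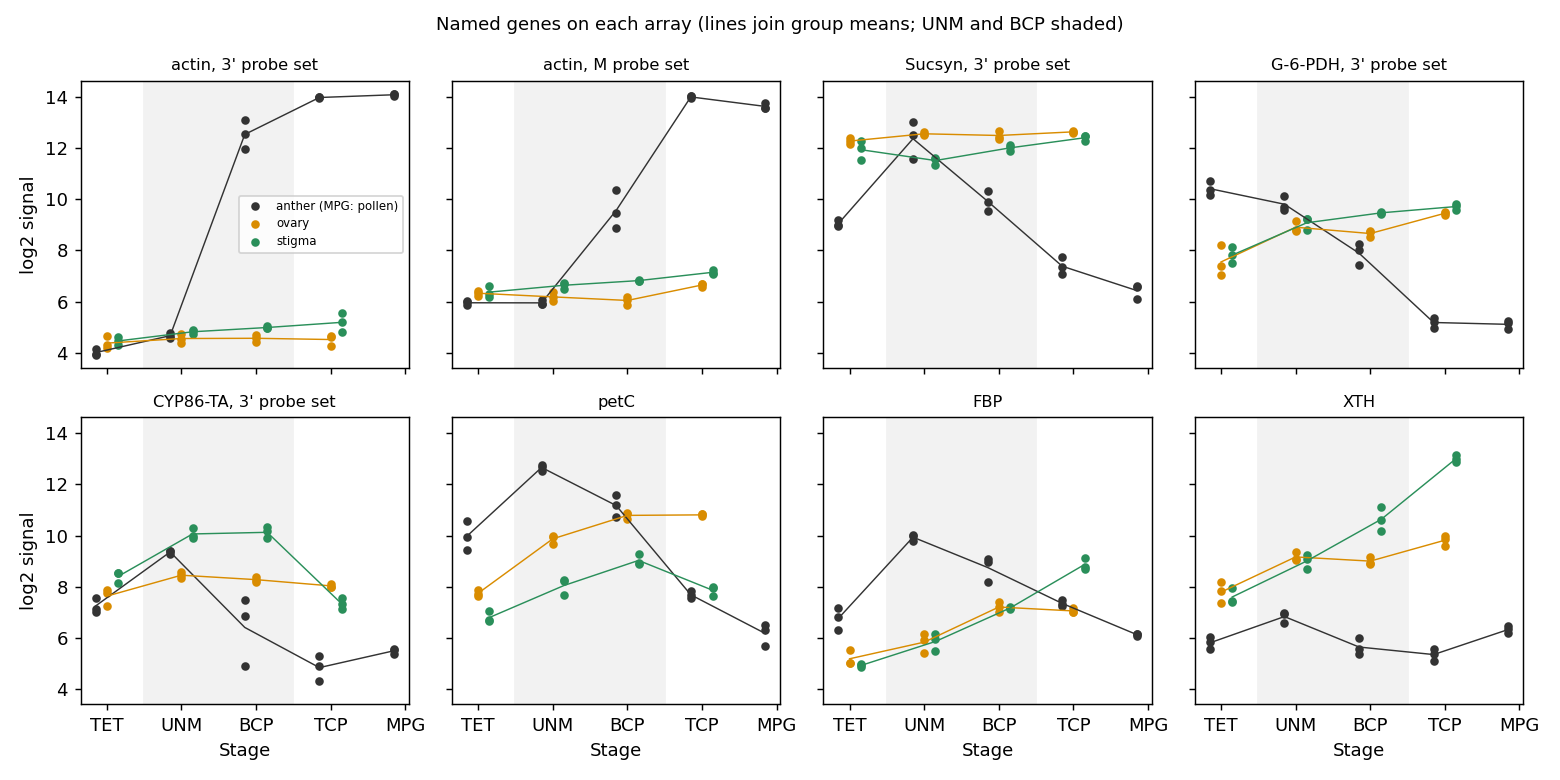
Log2 signal on each array (points) and group means (lines) of 7 named genes in 8 panels, in anthers from TET to TCP with mature pollen at MPG (black), ovaries (orange) and stigmas (green), with UNM and BCP shaded. Actin climbs in anthers alone between UNM and BCP, while FBP and petC go down in anthers where the means of ovaries and stigmas go up.

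CAT1, a catalase that breaks down hydrogen peroxide, read 7.24, 8.77 and 8.41 at UNM and 7.97, 6.91 and 7.09 at BCP, and its difference of -0.82 did not pass (adjusted p = 0.06 in limma). It passed without UNM replicate 1 (-1.27), without BCP replicate 1 (-1.14) and with array weights (-1.04). The anther change lay below that of ovaries by -1.63 (adjusted p = 0.0082 in limma). SAHH, the adenosylhomocysteinase that recycles the product of methylation reactions, stayed near the top of the range, at 14.09 and 13.92, and was at 8.38 in mature pollen. TBP1, the TATA-binding protein of the transcription machinery, had a difference of 0.35 with an adjusted p of 0.047 in limma, under the size needed for a call.

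The remaining names gave little. Ubiquitin, a control for steady expression, had differences of 0.23, 0.09 and -0.04 at its 5', M and 3' probe sets; none was called. The ef1a control, COR410, a dehydrin induced by cold and drying, and the thionin genes THI1.1, THI1.2 and TTHV were dim at both stages and not called.

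The 18SrRNA control was the only other named gene that rose. It read 11.36, 11.09 and 10.81 at UNM and 13.14, 13.21 and 13.22 at BCP, a difference of 2.10 (SE 0.51, adjusted p = 0.002 in limma). Ovary means were 11.92 at UNM and 13.16 at BCP and stigma means 12.03 and 13.15, neither called, and the anther change did not differ detectably from either (differences of 0.87, adjusted p = 0.53, and 0.99, adjusted p = 0.45, in limma). The poly-A control means went up in all 3 organs at the same step, and their part in this rise was not tested.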

How the data were processed

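The authors deposited log2 signals, and the submitters' processing notes name RMA for them. Its version is not given in the sources used here, nor is it stated whether the 39 arrays were processed as 1 set. The table held 61290 probe sets. All 111 control probe sets whose names begin with AFFX were dropped, which left 61179, and no filter on dim values was used. The 25 wheat controls among them were tested in a second fit of 61204 rows.

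Linear models were fitted to all 39 arrays with limma 3.58.1 (R 4.3.3), 1 coefficient per group for 13 groups. Contrasts between coefficients were moderated with eBayes (26 residual and 7.49 prior degrees of freedom), and p-values were adjusted by Benjamini-Hochberg over all rows. Every adjusted p is of this kind. Calls required both an adjusted p below 0.05 and a change of 1 log2 unit or more. The procedure was run on simulated arrays with known changes. Their noise was independent and held no shift of a whole array or group, so that run could not test the effect of scaling. Arrays have no read depth; 3 arrays per group limit the precision.

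Names came from a platform annotation and from the control names. A gene is represented by its brightest probe set over all arrays. Named were the genes with a symbol, and otherwise the 2 probe sets with the largest rise and the 2 with the largest fall among those whose arrays do not overlap; other probe sets were chosen after their values were seen, as stated. The comparison and the gene lists were chosen with earlier results of these data known. Alternatives were other scalings, a filter on dim probe sets, other fits and thresholds, and leaving out arrays.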

Additional observations from a re-analysis of the deposited data

Results flagged for a closer look

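Several results differed between anthers and the female organs by a test of the difference itself, the anther change from UNM to BCP minus the change in the other organ, in limma. Beyond both ovaries and stigmas, 1938 probe sets had a higher and 2207 a lower change in anthers. Against ovaries the log2 differences were 3.74 for actin, -1.63 for CAT1, -2.77 for CYP86-TA, -2.55 for FBP, -1.66 for G-6-PDH, -2.40 for petC, -2.37 for Sucsyn and -1.02 for XTH. Against stigmas they were 3.42 for actin, -3.01 for CYP86-TA, -2.49 for FBP, -2.30 for G-6-PDH, -2.46 for petC, -2.93 for Sucsyn and -2.82 for XTH. CAT1 against stigmas, at -1.22, did not pass (adjusted p = 0.052 in limma). It passed there without anther UNM replicate 1 (-1.67) and without anther BCP replicate 1 (-1.55). GAPN passed without anther BCP replicate 1 alone, at -1.07 against ovaries and -1.29 against stigmas.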

How the results depend on the processing

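Scaling on the hybridisation controls gave 6632 higher and 1295 lower, with 114 bright-to-dim probe sets in place of 174, and 13.4% of its own 6632 risers higher in mature pollen than in both TCP organs in place of 34.6% of 2458. Keeping probe sets with a mean of at least 6 gave 1511 higher, against 2458, and 100 dim-to-bright and 105 bright-to-dim ones, fewer rows being tested. With no minimum log2 difference 6495 were higher and 6645 lower. Bright from 7 or 9 in place of 8 made the share of risers bright in mature pollen 47.2% or 27.3% and of fallers bright at TET 53.5% or 23.4%. Leaving out each of the 6 anther arrays gave 2305 to 2714 higher and 2255 to 2834 lower. With replicate number as a block 2455 were higher and 2553 lower; same-numbered UNM and BCP arrays deviated from their group means with r of 0.0034, 0.00598 and 0.114, so the numbers were not read as pairing, and not every array correlated best with its own number. For the 21 named genes, over the step and its difference from either organ, 667 values under alternatives kept their side of the threshold, 9 lost the call and 9 gained it, and none changed direction while called. At the step the gains were of CAT1 with array weights and without anther UNM or BCP replicate 1, of GAPN without BCP replicate 1, and of TBP1 with no minimum, and the losses were those given for FBP, petC and XTH.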

Other observations

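Some rises and falls were repeated across probe sets that share a sequence cluster number, which are not independent of each other. The 2458 risers carried 1985 numbers and the 2606 fallers 2037. Of the risers' numbers, 726 belonged to several probe sets, of which 335 had at least 2 called higher and 3 had another called lower. For the fallers 819 numbers belonged to several probe sets, 380 had at least 2 called lower and 3 had another called higher.

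The share of probe sets called differed by the ending of the name, by which the array's maker marks probes shared between transcripts. Those ending in plain _at were called higher in 3.33% and lower in 3.46%, those ending in _x_at in 4.99% and 7.24%, those ending in _s_at in 7.40% and 8.08%, and those ending in _a_at in 9.36% and 6.81%.

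Replicates spread widely at single points of the course. The 18SrRNA control read 6.88, 8.12 and 11.52 in TCP anthers.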
